A study of Mus musculus with 2 samples.

Results

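The liver X receptor (LXR) and cholesterol efflux genes described here are 6 named genes, found as the rows of the feature lists of both libraries that carry the symbols Abca1, Abcg1, Nr1h2, Nr1h3, Apoe and Lrp1. They are 6 of the 31057 features counted. Their levels were read in adrenal cortical cells that were grouped by 3 other genes, Cyp11b2, Cyp11b1 and Aldh1a1, separately in each library. The study profiled single cells sorted from 26 adrenals of male mice aged 15 weeks. The labels give the genotype of both libraries as WT with SF1-Cre and Rosa mTmG. SF1-Cre is a Cre recombinase driven in steroidogenic cells, and Rosa mTmG is a reporter of Cre recombination. Cells that took up the DNA dye Vybrant DyeCycle Ruby and excluded DAPI were sorted and run on a 3′ droplet kit, which counts each captured RNA molecule as a unique molecular identifier (UMI). All mice shared 1 genotype and no treatment was named, so the 2 libraries are replicates of a single group. The sources used here do not give which animals went into which library, and p-values measure only the spread between these libraries, which may be technical.

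Steroid-producing cells of the adrenal cortex take up and store large amounts of cholesterol, the raw material of their hormones. LXRs are nuclear receptors that are activated by oxidised cholesterol derivatives (oxysterols) and by desmosterol, and bind DNA as partners of retinoid X receptors. Nr1h3 encodes LXR alpha and Nr1h2 encodes LXR beta. Their best known target genes are Abca1, a transporter that moves cellular cholesterol to apolipoprotein A-I, and Abcg1, a transporter that moves cholesterol to high-density lipoprotein particles. Apoe encodes apolipoprotein E, a carrier of cholesterol that is also an LXR target in macrophages, and Lrp1 encodes a large endocytic receptor that binds apolipoprotein E among many ligands. In the mouse, loss of LXR alpha is known to raise adrenal cholesterol and corticosterone.

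On mm10, with GENCODE vM21 gene models, Abca1 (ENSMUSG00000015243) lies on the minus strand at chr4:53030787-53159895. Abcg1 (ENSMUSG00000024030) lies on the plus strand at chr17:31057675-31117988. The receptors lie on the minus strand, Nr1h2 (ENSMUSG00000060601) at chr7:44549616-44553951 and Nr1h3 (ENSMUSG00000002108) at chr2:91184061-91202834. Apoe (ENSMUSG00000002985) lies at chr7:19696109-19699188 and Lrp1 (ENSMUSG00000040249) at chr10:127538161-127621148, both on the minus strand. No feature counted in the files shared the strand and bases of any of the 6.

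The promoter of Abca1 is shown because this gene had the largest fitted difference between Cyp11b1-high and Cyp11b2-high cells of the 5 genes tested and because its proximal promoter is known to hold an LXR element. LXR elements are direct repeats of a 6-base unit separated by 4 bases, and 2 copies of AGGTCA with any 4 bases between them were searched for. The RefSeq promoter table (GRCm38.p6) spans 250 bases before to 50 after each start and held 5 of the 6 genes. The Abca1 window is chr4:53159846-53160145, minus strand, printed 5′ to 3′ with the closest match to that motif in capitals.
Abca1 promoter: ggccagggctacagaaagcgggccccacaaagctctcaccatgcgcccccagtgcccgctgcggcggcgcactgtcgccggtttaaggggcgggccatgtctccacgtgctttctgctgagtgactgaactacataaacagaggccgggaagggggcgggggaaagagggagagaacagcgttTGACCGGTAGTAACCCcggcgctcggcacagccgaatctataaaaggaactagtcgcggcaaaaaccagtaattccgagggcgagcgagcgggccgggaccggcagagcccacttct
The match lies on the opposite strand, where it reads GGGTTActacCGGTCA, from base -67 to base -52 relative to the start. It differs from the motif at 3 of the 12 fixed bases. Searching both strands, 21.9% of all 32851 promoters of that length held a match with at most 3 mismatches and 3.02% held one with at most 2. The closest matches in the windows of Nr1h2, Nr1h3 and Apoe had 4 mismatches and that of Lrp1 had 5. A match describes letters only, and no binding was measured.

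Total depth was 92905273 UMIs over 5040 barcodes in library 1 and 28023733 UMIs over 2288 barcodes in library 2. After filters on depth, gene number, mitochondrial share and doublet score, 4695 and 1975 cells remained, and 4371 and 1606 of them were cortical cells with at least 5000 UMIs. Cells were grouped by their CPM (UMIs of a gene scaled to a fixed total of UMIs per cell). Aldh1a1-high cells (500 CPM or more of Aldh1a1) were taken out, and the others were split by Cyp11b2, which encodes aldosterone synthase, and Cyp11b1, which encodes the last enzyme of corticosterone synthesis. This gave Cyp11b2-high cells (200 CPM or more, with less than 200 of Cyp11b1; 460 in library 1 and 221 in library 2), cells with both enzymes at 200 or more (44 and 24), cells low in both (2794 and 886), cells with intermediate Cyp11b1 (200 to 1000 CPM; 612 and 185), Cyp11b1-high cells (1000 CPM or more; 433 and 264) and Aldh1a1-high cells (28 and 26). The group genes were left out of every test.

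Other markers followed the grouping in part. Of 5 further markers of the aldosterone-producing outer zone, Vsnl1 was at 775 and 1041 CPM in Cyp11b2-high cells against 145 and 121 in Cyp11b1-high cells, and Dab2, Wnt4 and Agtr1b were also higher there in both libraries, whereas Shh was lower (211 and 197 CPM against 249 and 359). Of 3 further markers of the corticosterone-producing zone, Abcb1b (19.9 and 15.8 CPM in Cyp11b2-high cells, 138 and 219 in Cyp11b1-high cells) and Mrap were higher in Cyp11b1-high cells, and Akr1b7 was lower in library 1 (1324 against 1654) and higher in library 2 (1876 against 1491). Of the 6 groups, Aldh1a1-high cells were highest in Abcb1b (4659 and 8196 CPM) and Mrap (379 and 375 CPM). They were lowest in Akr1b7 (717 and 216 CPM). Among 7 cortical markers, Star, Cyp11a1 and Hsd3b1 were higher in Aldh1a1-high than in Cyp11b1-high cells in both libraries. Cyp21a1 (3625 and 660 CPM against 7099 and 7828), Mc2r (133 and 17.2 against 400 and 354), Nr5a1 and Scarb1 were lower. Of 4 further inner markers, Srd5a2 (417 and 540 CPM) and Thrb (41.9 and 98.1 CPM) were highest in Aldh1a1-high cells, and Pik3c2g had no UMI there. Akr1c18, the defining marker of the X-zone, had no UMI in any of the 6 groups, so Aldh1a1-high cells are called by their gene and not by a zone. Their makeup differed between the libraries. The 6 outer-zone markers, Cyp11b2 among them, summed to 923 CPM in Aldh1a1-high cells of library 1 and 137 CPM in those of library 2. In Cyp11b1-high cells the sums were 2601 and 2520 CPM. The part of this difference in the levels of Aldh1a1-high cells was not tested. Across 13655 genes the summed counts of the libraries correlated at 0.988 (Pearson and Spearman), yet differed by a chi-square of 124 per degree of freedom. The libraries shared 4 barcodes.

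Abca1 rose from Cyp11b2-high to Cyp11b1-high to Aldh1a1-high cells in both libraries, and Lrp1 rose in the same order by smaller steps. Nr1h3 was close to its detection limit, and its few UMIs gave higher levels in Cyp11b1-high than in Cyp11b2-high cells in both libraries, but it entered the test only through the groups where it was high. Nr1h2 and Apoe passed the threshold in none of the 6 edgeR comparisons. Abcg1 was nearly undetected in cortical cells.

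**Figure D1:**
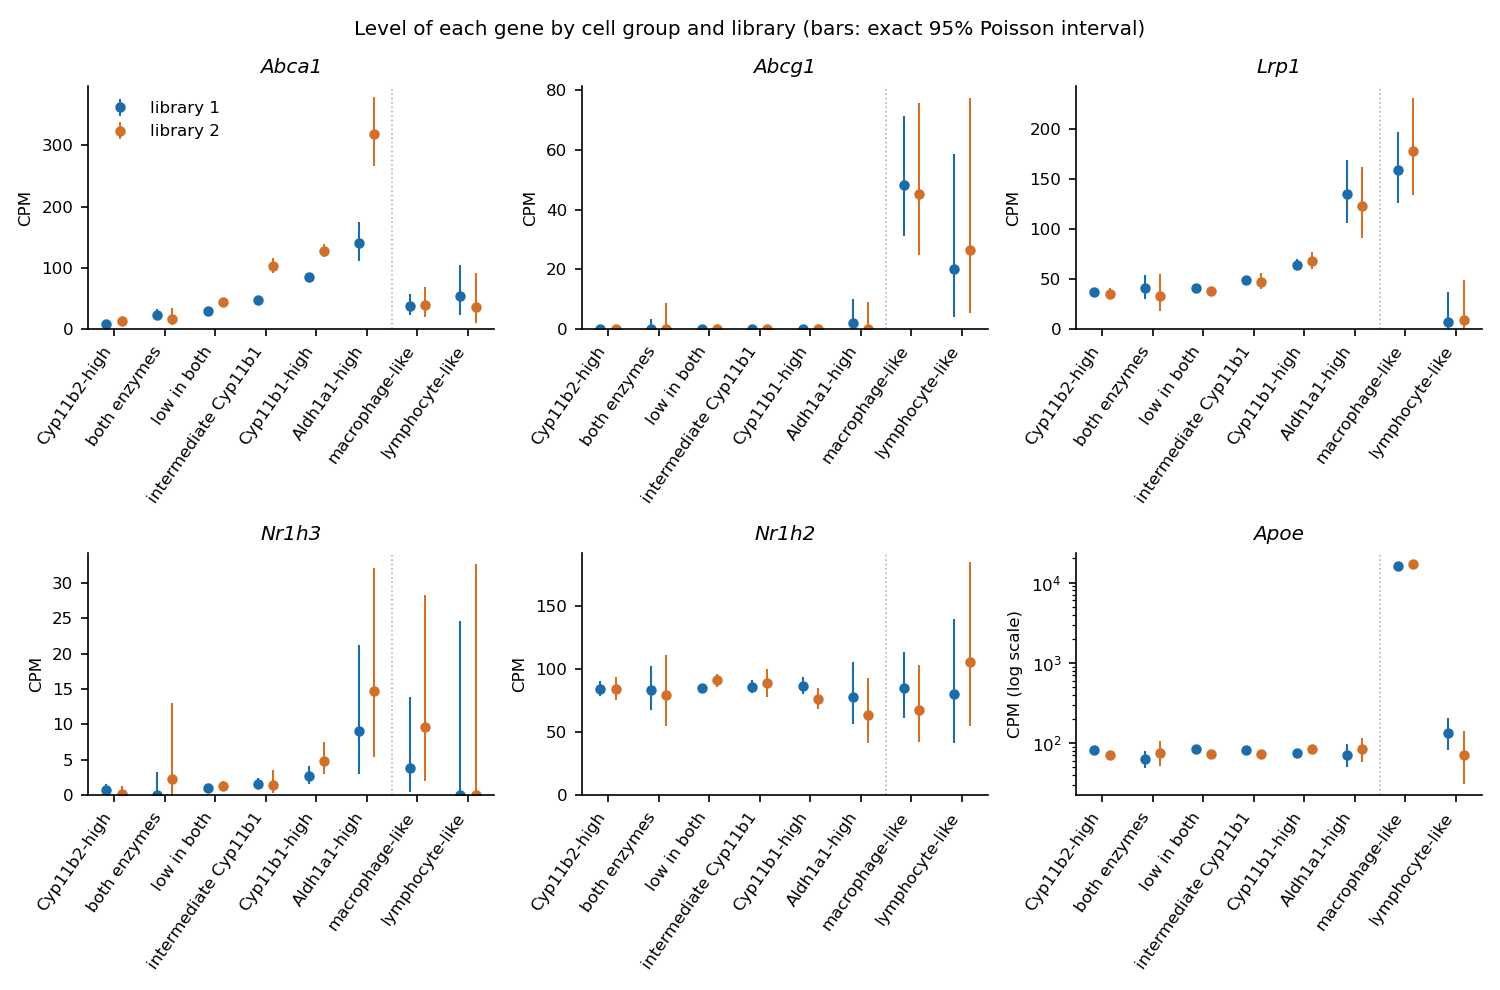
Level of each gene as CPM of the summed UMIs (vertical axes; log scale for Apoe) in 6 cortical groups and, right of the dotted line, macrophage-like and lymphocyte-like cells, by library; bars are exact 95% Poisson intervals, which cover counting error only. Abca1 climbs from 7.85 and 13.1 CPM in Cyp11b2-high cells to 140 and 319 CPM in Aldh1a1-high cells, Nr1h2 stays between 63.8 and 91.2 CPM in the cortical groups, and Apoe stands out in macrophage-like cells.

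Abca1, the transporter that exports cholesterol to apolipoprotein A-I, was at 7.85 CPM in Cyp11b2-high cells of library 1 and 13.1 CPM in those of library 2. In Cyp11b1-high cells it was at 85.1 and 128 CPM, and in Aldh1a1-high cells at 140 and 319 CPM. The order of these 3 groups was the same in both libraries, and the values of each group lay apart from those of the others. The share of all genes that separate these groups in this way was not counted. Counting intervals did overlap across libraries, between Aldh1a1-high cells of library 1 (111 to 175 CPM) and Cyp11b1-high cells of library 2 (117 to 139 CPM). Cells low in both enzymes (28.6 and 43.2 CPM) and cells with intermediate Cyp11b1 (47.9 and 103 CPM) lay between the outer pair of groups. Cells with both enzymes had 22.4 and 16.4 CPM, from 25 and 7 UMIs. Library 2 was higher than library 1 in 5 of the 6 groups, by up to 2.27 times, and lower in cells with both enzymes, at 0.732 times.

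The comparison of Cyp11b1-high with Cyp11b2-high cells asks how corticosterone-type cells differ from aldosterone-type cells. UMIs summed per group and library were fitted in 1 edgeR quasi-likelihood model with a library term, with Benjamini-Hochberg adjustment over all 11670 genes tested and a threshold of 0.05. Of these genes, 33.3% passed, 15.5% as higher and 17.8% as lower in Cyp11b1-high cells. Abca1 was 9.65 times higher (log2 difference 3.27 ± 0.16 SE, edgeR adjusted p = 7.37e-13). The ratio of raw levels was 10.8 in library 1 and 9.79 in library 2. With every cell thinned to 5000 UMIs the log2 difference was 4.32, where the Cyp11b2-high cells held 9 and 7 Abca1 UMIs.

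A further rise from Cyp11b1-high to Aldh1a1-high cells was 2.15 times for Abca1 (log2 difference 1.11 ± 0.17 SE, edgeR adjusted p = 7.86e-05), in a comparison where 14.5% of genes passed, 7.73% as higher and 6.8% as lower. The raw ratio was 1.65 in library 1 and 2.49 in library 2. Without the library term the call was lost (log2 difference 1.14, adjusted p = 0.121). Against Cyp11b2-high cells, the Aldh1a1-high cells were 20.8 times higher (4.38 ± 0.23 SE, adjusted p = 2.18e-12; 28% of genes passed, 13.2% as higher and 14.8% as lower). That contrast shares its groups with the other comparisons and is not independent of them.

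The groups between the extremes were also higher than Cyp11b2-high cells in Abca1. Cells with intermediate Cyp11b1 were higher by 2.66 ± 0.17 (log2, SE; edgeR adjusted p = 2.40e-10), where 17.6% of genes passed, 7.51% as higher and 10.1% as lower. Cells low in both enzymes were higher by 1.76 ± 0.17 (adjusted p = 1.68e-07), where 13.6% of genes passed, 6.22% as higher and 7.4% as lower. This second call was lost without the library term (adjusted p = 0.132). Cells with both enzymes did not pass (1.07 ± 0.41, adjusted p = 0.530), in a comparison where 0.0771% of genes did, 0.0171% as higher and 0.06% as lower.

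Cut more finely by Cyp11b1, Abca1 climbed in steps. Cells with no Cyp11b1 UMI had 24.7 CPM of Abca1 in library 1 and 33.8 CPM in library 2. Cells at 200 to 500 CPM of Cyp11b1 had 40.9 and 74.7 CPM, and cells at 2000 CPM or more had 104 and 143 CPM. Values rose at each step in library 1, but counting intervals overlapped at the low end, as between no UMI (24.7) and under 100 CPM (25.4). In library 2 the cells at 1000 to 2000 CPM (96.2) lay below those at 500 to 1000 (113), within their counting intervals. Among cells with less than 200 CPM of Cyp11b1, Abca1 fell as Cyp11b2 rose, from 39.0 and 53.8 CPM in cells with no Cyp11b2 UMI to 6.39 and 9.68 CPM in cells with 400 CPM or more. Values fell at each step in library 1, but some counting intervals overlapped, as between under 100 (16.8) and 100 to 200 CPM of Cyp11b2 (14.4). In library 2 the cells at 200 to 400 CPM of Cyp11b2 (15.7) lay above those at 100 to 200 (13.6), within their counting intervals. These bins describe cells of the same 2 libraries and were not tested.

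**Figure D2:**
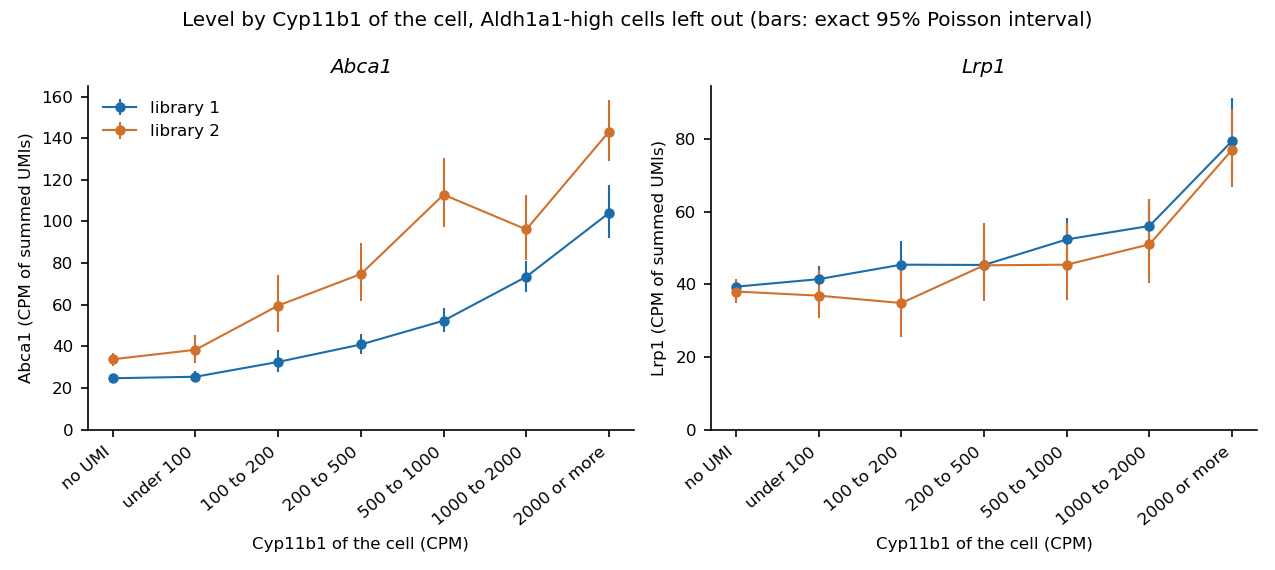
Abca1 (left) and Lrp1 (right), as CPM of summed UMIs, in cells binned by their own Cyp11b1 level (horizontal axis, CPM), with Aldh1a1-high cells left out; bars are exact 95% Poisson intervals. Abca1 climbs from 24.7 to 104 CPM in library 1 and from 33.8 to 143 CPM in library 2, and Lrp1 climbs most in the last bin, to 79.5 and 77.0 CPM.

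More cells had an Abca1 UMI where its level was higher. In Cyp11b2-high cells 13.3% and 18.1% had one, in Cyp11b1-high cells 55.9% and 66.7%, and in Aldh1a1-high cells 75.0% and 92.3%. Thinned to 5000 UMIs a cell, these shares were 1.96% and 3.17%, then 31.4% and 37.9%, then 42.9% and 65.4%, in the same order. Lymphocyte-like cells, with medians of 3092 and 3726.5 UMIs against 21042 and 18890 in Cyp11b2-high cells, had an Abca1 UMI in 21.4% and 10.7% of cells. Per cell they held 0.286 and 0.143 UMIs, against 0.167 and 0.240 in Cyp11b2-high cells and 1.48 and 2.01 in Cyp11b1-high cells. The share and the count per cell in Cyp11b2-high cells thus lay below those of lymphocyte-like cells in library 1 and above them in library 2, from 8 and 4 UMIs in lymphocyte-like cells. These cells also held UMIs of cortical markers, summing to 4822 and 478 CPM over 7 genes, against 17045 and 15408 CPM in Cyp11b2-high cells. The part of free RNA in the low counts of Cyp11b2-high cells was not tested, and folds over that group are of uncorrected counts.

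Single cells held part of the Abca1 counts. In Aldh1a1-high cells the highest cell held 11 of 77 UMIs in library 1 and 25 of 130 in library 2. In cells with intermediate Cyp11b1 of library 2, 1 cell held 32 of 296 UMIs. Macrophages express Abca1 in many tissues. Macrophage-like cells here had 36.7 and 38.7 CPM, from 19 and 12 UMIs, less than Cyp11b1-high cells in both libraries. They also held UMIs of cortical markers, summing to 6671 and 5472 CPM over 7 genes. The part of free RNA in their Abca1 counts was not tested.

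Lrp1, the endocytic receptor, was at 36.6 and 35.1 CPM in Cyp11b2-high cells of libraries 1 and 2. It had 64.2 and 67.9 CPM in Cyp11b1-high cells and 135 and 123 CPM in Aldh1a1-high cells. The libraries lay close together in each of these groups and the groups did not overlap, a separation whose share over all genes was not counted. Macrophage-like cells had 158 and 178 CPM, and lymphocyte-like cells had 1 UMI in each library. The Aldh1a1-high cells thus came near the macrophage-like level, with overlapping counting intervals.

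In the fit, Lrp1 was 1.71 times higher in Cyp11b1-high than in Cyp11b2-high cells (log2 difference 0.77 ± 0.10 SE, edgeR adjusted p = 1.11e-06). It was 2.02 times higher again in Aldh1a1-high than in Cyp11b1-high cells (1.01 ± 0.15, adjusted p = 4.21e-05), a call that was lost when cells were thinned (0.87, adjusted p = 0.0773). From Cyp11b2-high to Aldh1a1-high cells the difference was 1.79 ± 0.16 (adjusted p = 1.37e-08), or 3.45 times. Cells with intermediate Cyp11b1 were higher than Cyp11b2-high cells by 0.34 ± 0.10 (adjusted p = 0.0161), which did not hold with DESeq2 (adjusted p = 0.0599), with group thresholds lowered to 0.5 times (0.0545) or without the library term (0.738). Cells low in both enzymes (0.10 ± 0.09, adjusted p = 0.521) and cells with both (0.00 ± 0.19, adjusted p = 1) did not pass.

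Unlike Abca1, Lrp1 moved little at the low end of Cyp11b1, from 39.3 and 38.0 CPM in cells with no Cyp11b1 UMI to 45.3 and 45.2 CPM at 200 to 500 CPM. It reached 79.5 and 77.0 CPM at 2000 CPM or more. Whether the same cells held both transcripts was read within groups after thinning. In Cyp11b1-high cells an Lrp1 UMI was found in 26.5% of cells with an Abca1 UMI and 22.6% of those without in library 1, and in 24.0% and 25.6% in library 2. In cells low in both enzymes the shares were 22.2% and 18.0% in library 1 and 22.7% and 15.6% in library 2. The exact 95% intervals of these pairs overlapped, and the differences were not tested.

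Nr1h3, the gene of LXR alpha, had 161 UMIs over all 12 sums, so its values are coarse. Cyp11b2-high cells had 0.815 CPM in library 1 and 0.247 CPM in library 2, from 8 UMIs and 1 UMI. Cyp11b1-high cells had 2.66 and 4.83 CPM, from 20 UMIs in each library, and Aldh1a1-high cells had 9.10 and 14.7 CPM, from 5 and 6 UMIs. The order of the 3 groups was the same in both libraries. Cells low in both enzymes (1.06 and 1.27 CPM) and with intermediate Cyp11b1 (1.58 and 1.39 CPM) lay between the outer pair of groups, and cells with both enzymes had 0 and 1 UMI. The 1 UMI of Cyp11b2-high cells in library 2 is under the limit of 3 UMIs, which stands at 0.741 CPM. Lymphocyte-like cells had no UMI, which allows up to 24.6 and 32.6 CPM (exact 95% Poisson limits).

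Nr1h3 passed the filter on low counts through the Cyp11b1-high and Aldh1a1-high sums alone, which were the 4 of 12 sums at or above the filter's 2.46 CPM. A gene let in by the groups where it is high had to differ from the others, so its fitted differences are given as a description, with no call. They were 2.28 ± 0.55 (log2, SE) between Cyp11b1-high and Cyp11b2-high cells, 1.75 ± 0.63 between Aldh1a1-high and Cyp11b1-high cells and 4.03 ± 0.80 between Aldh1a1-high and Cyp11b2-high cells. With no filter on low counts the first was 2.29 ± 0.56.

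Nr1h2, the gene of LXR beta, was detected evenly. It was at 84.6 and 84.7 CPM in Cyp11b2-high cells, 87.0 and 76.4 CPM in Cyp11b1-high cells and 78.3 and 63.8 CPM in Aldh1a1-high cells. The other 3 cortical groups lay between 79.8 and 91.2 CPM, and macrophage-like and lymphocyte-like cells between 67.8 and 106 CPM. Aldh1a1-high cells were lowest in both libraries, with counting intervals that overlapped those of the other groups. The log2 difference was -0.13 ± 0.08 SE between Cyp11b1-high and Cyp11b2-high cells (edgeR adjusted p = 0.200), -0.16 ± 0.17 between Aldh1a1-high and Cyp11b1-high cells (adjusted p = 0.610) and -0.29 ± 0.17 between Aldh1a1-high and Cyp11b2-high cells (adjusted p = 0.214).

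Apoe, the apolipoprotein, was by far highest in macrophage-like cells, at 16076 and 16841 CPM. Cyp11b2-high cells had 81.5 and 71.3 CPM, Cyp11b1-high cells 74.9 and 83.6 CPM and Aldh1a1-high cells 71.0 and 83.4 CPM. The cortical groups overlapped throughout. Log2 differences were -0.08 ± 0.10 SE (edgeR adjusted p = 0.572) between Cyp11b1-high and Cyp11b2-high cells and -0.01 ± 0.21 (adjusted p = 0.993) between Aldh1a1-high and Cyp11b1-high cells. With group thresholds raised to 2 times the second was -1.03 and passed (adjusted p = 0.00515), whereas with cells thinned to 5000 UMIs it was 0.67 and did not pass (adjusted p = 0.171). In Aldh1a1-high cells of library 2, 1 cell held 20 of the 34 Apoe UMIs, and the level without that cell was 35.0 CPM.

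Apoe was also read beside other cells and beside Lyz2. Lymphocyte-like cells had 133 and 70.8 CPM from 20 and 8 UMIs, levels that overlap those of cortical cells. Per cell this was 0.714 and 0.286 UMIs, against 1.74 and 1.31 in Cyp11b2-high cells and 1.30 and 1.31 in Cyp11b1-high cells. Lyz2, a lysozyme gene abundant in macrophages, gave 71.4 and 60.5 UMIs per 100 Apoe UMIs in macrophage-like cells. It gave 0 to 2.02 per 100 in the 6 cortical groups, and 5.0 and 12.5 in lymphocyte-like cells, from 1 Lyz2 UMI in each library. The part of free RNA in the cortical Apoe counts was not tested.

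Abcg1, the LXR target that serves high-density lipoprotein, had 3 UMIs in all 5977 grouped cortical cells. All were in library 1, 2 in cells low in both enzymes and 1 in an Aldh1a1-high cell, which gives 0.0348 CPM (exact 95% Poisson interval 0.00719 to 0.102). Library 2 had none, which allows up to 0.142 CPM (exact 95% Poisson limit). Macrophage-like cells had 48.3 and 45.2 CPM, from 25 and 14 UMIs. Lymphocyte-like cells had 20.01 and 26.5 CPM, from 3 UMIs in each library, which is just at the detection limit. Abcg1 did not pass the low-count filter and was not tested. The 2 best known LXR target transporters thus stood far apart in these cortical cells, with 4607 UMIs of Abca1 and 3 of Abcg1 in the same sums.

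**Figure D3:**
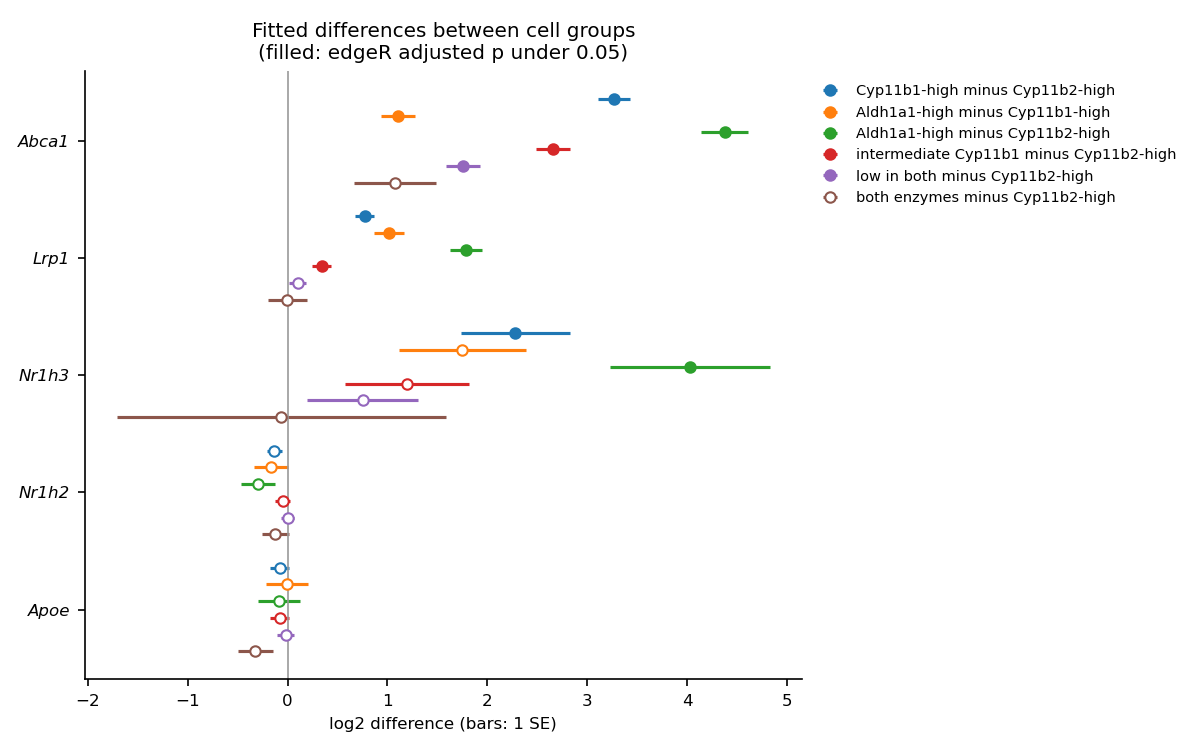
Log2 differences of 5 genes in 6 comparisons of cell groups (horizontal axis), with bars of 1 SE from the edgeR fit; filled points passed at adjusted p under 0.05. Abca1 was higher than in Cyp11b2-high cells in 4 of the 5 groups compared with them, and Lrp1 in 3 of 5. Nr1h2 and Apoe passed in none of the 6 comparisons, with differences from -0.32 to 0.002. Nr1h3 was let into the fit by the groups where it is high, so its filled points are not calls.

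Other cells and RNA quality were read beside these results. Malat1, a nuclear RNA that is relatively higher in damaged cells, was at 20916 and 26723 CPM in Cyp11b2-high cells, 30233 and 39907 CPM in Cyp11b1-high cells and 28877 and 57112 CPM in Aldh1a1-high cells. Like Abca1, it was higher in both inner groups than in Cyp11b2-high cells and higher in library 2. Its part in the differences was not tested. Of 5 endothelial markers, 2 had a UMI in Cyp11b2-high cells in each library (summed 2.04 and 1.73 CPM), 3 and 5 in Cyp11b1-high cells (16.1 and 12.1 CPM, mostly Kdr) and 2 in Aldh1a1-high cells (3.64 and 4.90 CPM), and their part was not tested. Of 9 macrophage markers, the sum was at most 7.36 CPM in every cortical group against 23419 and 21254 CPM in macrophage-like cells. None of 12 leukocyte markers had a UMI in Aldh1a1-high cells, and their sum reached 3.86 CPM in the other groups. The grouping partly set these sums. Cells with UMIs of at least 3 leukocyte markers were kept out of the cortical groups, and macrophage-like cells were chosen by the same macrophage markers. Nkg7, of the lymphocyte list, was higher in macrophage-like (398 and 326 CPM) than in lymphocyte-like cells (26.7 and 239 CPM). An Apoe UMI was found in 60.9% and 64.0% of macrophage-like cells. That group may thus be mixed, and its makeup was not tested. Of 5 fibroblast markers, Col1a2 and Pdgfra gave 24.5 CPM in Aldh1a1-high cells of library 2, and Col1a1 gave 1.82 CPM in those of library 1.

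Other genes of the pathway were read from 5 lists, beginning with LXR partners and co-regulators, and each count is set against the share of all genes tested that passed. Of 14 such genes 13 were tested. Between Cyp11b1-high and Cyp11b2-high cells, 2 were higher and 1 was lower, where 15.5% of all genes were higher and 17.8% lower, and the median log2 difference was 0.07 against 0.00 over all genes tested. Tbl1x, a subunit of the corepressor complex that holds unliganded nuclear receptors silent, fell by 0.74 (SE 0.06, adjusted p = 2.57e-09). Its relative Tbl1xr1 rose by 0.43 ± 0.15 (adjusted p = 0.0268) and Hdac3, the histone deacetylase of that complex, by 0.27 ± 0.10 (adjusted p = 0.0478). The partner receptors Rxra (0.53 ± 0.22, adjusted p = 0.0712) and Rxrb (0.00 ± 0.13, adjusted p = 0.997) did not pass. Between Aldh1a1-high and Cyp11b1-high cells 1 of the 13 passed, where 14.5% of all genes did. This was Nrip1, a nuclear receptor corepressor, which fell by 0.57 (SE 0.14, adjusted p = 0.00589).

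Of 16 other LXR target genes 11 were tested, and 5 were higher and 2 lower in Cyp11b1-high than in Cyp11b2-high cells (15.5% and 17.8% of all genes), with a median log2 difference of 0.18. Abcg4, a sterol transporter related to Abcg1, rose by 1.16 ± 0.37 (adjusted p = 0.0184). Smpdl3a, a phosphodiesterase, rose by 0.65 ± 0.18 (adjusted p = 0.00717). Srebf1, which encodes the transcription factor SREBP-1 of fatty acid synthesis, rose by 0.58 ± 0.10 (adjusted p = 8.23e-05). Not all targets moved that way. Mylip, which encodes a ubiquitin ligase, fell by 1.18 (SE 0.27, adjusted p = 0.00170) and Arl4c, a small GTPase, fell by 0.82 (SE 0.11, adjusted p = 5.64e-06).

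Of the same 11 targets, 3 were higher and 2 lower in Aldh1a1-high than in Cyp11b1-high cells (7.73% and 6.8% of all genes), with a median of 0.08 against -0.05 over all genes tested. Abcg4 rose by 1.78 ± 0.50 (adjusted p = 0.0191), Scd1, a desaturase of fatty acids, by 1.73 ± 0.24 (adjusted p = 1.58e-05) and its relative Scd2 by 0.36 ± 0.10 (adjusted p = 0.0185). Lpl, which encodes lipoprotein lipase, fell by 3.66 (SE 0.68, adjusted p = 0.000541), with 1 UMI left in each library of Aldh1a1-high cells. Arl4c fell by 2.32 (SE 0.45, adjusted p = 0.000857).

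Of 10 genes of enzymes that make or remove the sterol ligands of LXR 4 were tested, and 3 were lower and none higher in Cyp11b1-high than in Cyp11b2-high cells (17.8% and 15.5% of all genes), with a median log2 difference of -0.99. Cyp39a1, an oxysterol hydroxylase, fell by 1.17 (SE 0.27, adjusted p = 0.00157). Sc5d, an enzyme of late cholesterol synthesis, fell by 1.05 (SE 0.11, adjusted p = 1.18e-07). Dhcr7, which acts in the same late steps, fell by 0.93 (SE 0.11, adjusted p = 9.97e-07), from 124 and 153 to 64.9 and 80.2 TMM-normalised CPM. Between Aldh1a1-high and Cyp11b1-high cells none of the 4 passed edgeR's test, with a median of -0.08 and no unadjusted p under 0.05. The oxysterol-making Ch25h, Cyp27a1 and Cyp46a1 did not pass the low-count filter.

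Of 13 apolipoprotein E receptors and related receptors 9 were tested, and 2 were higher and 2 lower in Cyp11b1-high than in Cyp11b2-high cells (15.5% and 17.8% of all genes), with a median of -0.24. Lrp10 fell by 0.45 (SE 0.07, adjusted p = 4.39e-05) and Lrp6, a Wnt co-receptor, by 0.29 (SE 0.08, adjusted p = 0.00443). The Wnt co-receptor Lrp5 rose by 0.59 ± 0.11 (adjusted p = 0.000281) and the sorting receptor Sorl1 by 0.56 ± 0.13 (adjusted p = 0.00150). In Aldh1a1-high cells Vldlr, a lipoprotein receptor, rose by 1.81 ± 0.37 over Cyp11b1-high cells (adjusted p = 0.00141), and no other of the 9 passed, where 14.5% of all genes did.

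Of 17 genes of intracellular cholesterol traffic 16 were tested, and 2 were higher and 7 lower in Cyp11b1-high than in Cyp11b2-high cells (15.5% and 17.8% of all genes), with a median of -0.14. Abca5, a relative of Abca1, rose by 1.78 ± 0.21 (adjusted p = 7.51e-07), from 4.15 and 5.52 to 13.0 and 21.2 normalised CPM. Abca2, another relative, rose by 0.82 ± 0.17 (adjusted p = 0.000585). Stard4, a sterol carrier, fell by 1.30 (SE 0.18, adjusted p = 4.34e-06), Lipa, the lysosomal cholesteryl ester hydrolase, by 1.03 (SE 0.08, adjusted p = 9.56e-10) and Npc1, which moves cholesterol out of lysosomes, by 0.85 (SE 0.11, adjusted p = 2.07e-06). Against Cyp11b1-high cells, 2 of the 16 were higher and 3 lower in Aldh1a1-high cells (7.73% and 6.8% of all genes). Abca2 rose again by 1.76 ± 0.24 (adjusted p = 1.58e-05) and Abca7 by 1.72 ± 0.50 (adjusted p = 0.0239). Nceh1, a cholesteryl ester hydrolase, fell there by 0.86 (SE 0.12, adjusted p = 2.70e-05), Soat1, which esterifies cholesterol for storage, by 0.61 (SE 0.11, adjusted p = 0.000430) and Npc2 by 0.39 (SE 0.13, adjusted p = 0.0369).

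**Figure D4:**
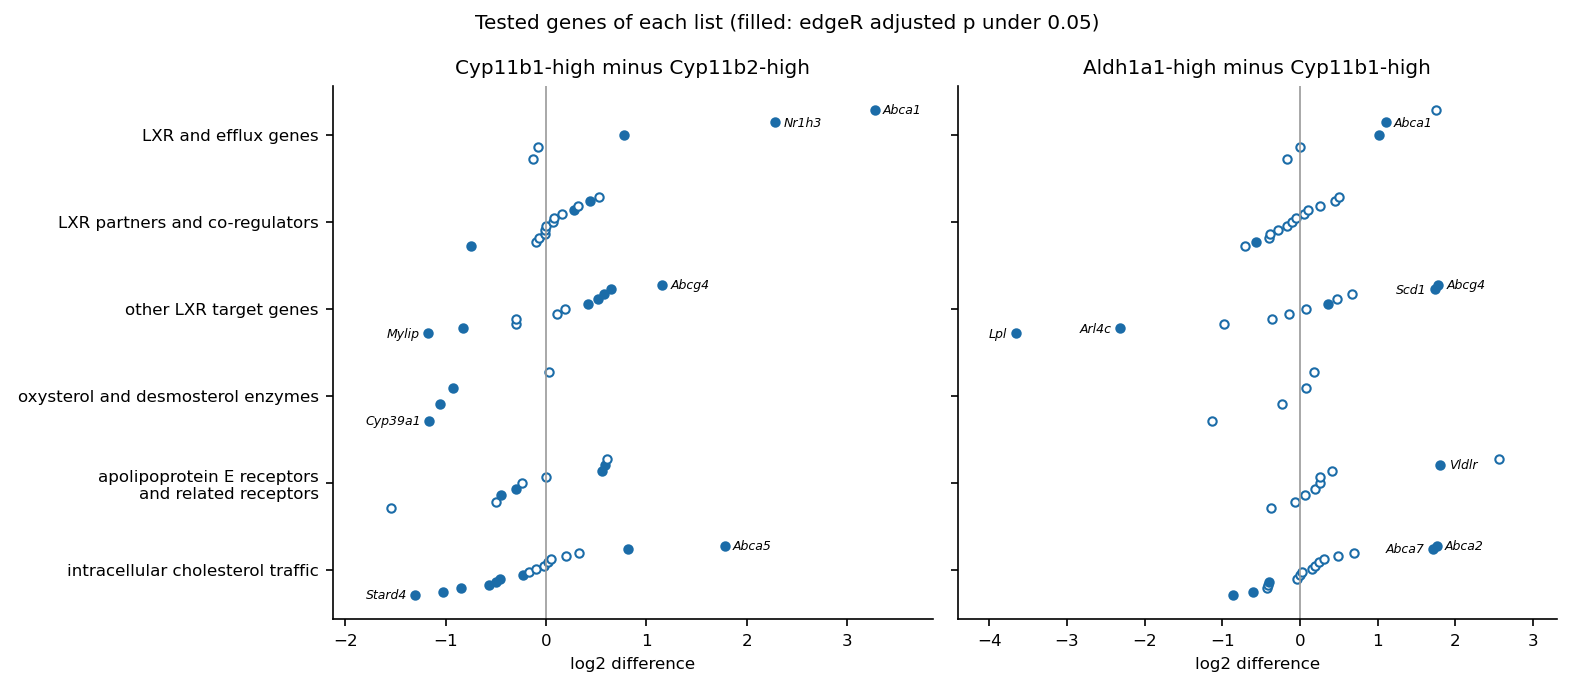
Log2 differences (horizontal axes) of the tested genes of each list (rows) between Cyp11b1-high and Cyp11b2-high cells (left) and between Aldh1a1-high and Cyp11b1-high cells (right); filled points passed edgeR's test at adjusted p under 0.05, and those beyond 1.1 are named. On the left Abca1 stands at 3.27, and 3 of 4 enzymes of oxysterol and desmosterol metabolism lie near -1. Nr1h3, at 2.28 on the left, was let into the fit by the groups where it is high, so its filled point is not a call.

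Genes whose pattern over the 12 sums was most like each member's were taken from 7514 genes by Pearson's r of log2 normalised CPM centred per library, as a description. For Abca1 they were Wnt5a, a Wnt ligand (0.984), Selenbp1, a methanethiol oxidase (0.983), and Pml, the scaffold of PML nuclear bodies (0.980). For Lrp1 they were the transcription factor Cebpb (0.995), the mitochondrial carrier Slc25a30 (0.995) and the reductase Dhrs7 (0.993). For Nr1h3 they were Fam168a (0.981), Pcmtd1 (0.981) and the follistatin-like gene Fstl3 (0.964). For Nr1h2 they were the cell cycle inhibitor Cdkn1a (0.968), Lcorl (0.967) and Prelid1 (0.957), and for Apoe the translation factor subunit Eif3i (0.918), the proteasome subunit Psmb7 (0.898) and Phf10 (0.892). The 12 sums come from 2 libraries and differ widely in depth.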

How the data were processed

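Deposited matrices hold UMI counts for each gene in each cell barcode, written by Cell Ranger 3.1.0 per the file headers, on mm10 per the labels; the sources used here do not give the cell-calling step. Of 31057 features, 30934 matched GENCODE vM21. Cells were kept with at least 1000 UMIs, 500 genes and no more than 30% mitochondrial UMIs, removing 148 and 276 barcodes. The highest scrublet scores (scanpy 1.11.5) were removed at 0.8% per 1000 barcodes, 197 and 37 cells. Doublets of like cells remain, and no free RNA was subtracted. Kept cells had medians of 18198 and 14825 UMIs. Leukocytes had UMIs of at least 3 leukocyte markers. They were split into macrophage-like and lymphocyte-like by at least 2 markers of either list and more of it than of the other. Cortical cells had UMIs of at least 3 of 7 cortical markers. Groups used fixed CPM thresholds.

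Counts were summed per group and library into 12 sums and fitted with edgeR 4.0.16 (R 4.3.3, limma 3.58.1; TMM, filterByExpr, group and library terms), which left 5 residual degrees of freedom beside 16.7 prior ones. P-values rest on how group differences varied between the libraries, pooled over groups. Same-numbered sums come from the same library, so the library term pairs them. Intervals (95%, exact Poisson or Clopper-Pearson) and limits of 3 UMIs cover counting error only. The model was also run on simulated sums with a spread shared by all genes and no difference between libraries. That run cannot show how well the p-values hold in these data. DESeq2 1.42.0, RLE factors, no filter, no library term, other thresholds and depths, doublets kept, at most 15% mitochondrial UMIs, cells with no leukocyte UMI and each library alone were tried as alternatives. Beside the 6 genes, up to 3 genes per list and direction were named by largest change past the threshold in the 2 main comparisons, and for each gene the 3 most like it, gene models aside. The genes, lists and thresholds were chosen with earlier results of these data known. Cyp11b1 and Cyp11b2 are close paralogs, and the counts do not show how reads common to both were assigned. Some genes of the lists are not reported here and are left out of the list counts and medians.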

Additional observations from a re-analysis of the deposited data

How the results depend on the processing

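Abca1 kept its direction and its call between Cyp11b1-high and Cyp11b2-high cells in all 12 alternatives with a test (log2 difference 2.98 to 4.32, largest adjusted p = 0.00104), as did Lrp1 (0.72 to 1.09, largest 0.0420). Nr1h3, which the low-count filter let in by the groups where it is high, was 2.12 to 2.52 in the 11 alternatives that tested it (all but thinning), given as a description. Single libraries gave 3.19 to 3.30 for Abca1, 0.70 to 0.87 for Lrp1, 1.39 to 3.33 for Nr1h3 (the higher against 1 UMI), -0.23 to -0.07 for Nr1h2 and -0.23 to 0.15 for Apoe. Between Aldh1a1-high and Cyp11b1-high cells single libraries gave 0.70 to 1.43 for Abca1, 0.97 to 1.04 for Lrp1, 1.67 in both for Nr1h3, -0.17 to -0.14 for Nr1h2 and -0.10 to 0.11 for Apoe. In that comparison the call of Abca1 was lost with no replicate block (1.14) and that of Lrp1 with thinning (0.87). Nr1h3 was 1.80 with DESeq2, 2.14 with lower thresholds and 1.96 with no minimum depth, given as a description with no call. Apoe passed there with higher thresholds (-1.03) but was 0.67 with thinning, which did not pass. Against Cyp11b2-high cells, Apoe of Aldh1a1-high cells passed as lower with higher thresholds (-0.90) and at 10000 UMIs or more (-0.63), and was 0.67 with thinning, which did not pass. The causes were not tested.

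Leaving out the library term lowered the count of genes that passed in all 6 comparisons. With no replicate block it was 779 against 3890 for Cyp11b1-high against Cyp11b2-high cells, 567 against 1696 for Aldh1a1-high against Cyp11b1-high, 1886 against 3271 for Aldh1a1-high against Cyp11b2-high, 95 against 2059 for intermediate Cyp11b1, 14 against 1590 for cells low in both and 0 against 9 for cells with both, where edgeR gave 316 genes at an unadjusted p under 0.05. Thinning to 5000 UMIs, which leaves fewer counts, gave 2067, 656, 1525, 1017, 811 and 4 in the same order. DESeq2 gave 820 for cells low in both and 27 for cells with both, where no low-count filter gave 79, lower thresholds 14 and higher thresholds 21. The share of higher calls moved with DESeq2 from 53.2% to 66.5% between Aldh1a1-high and Cyp11b1-high cells, from 47.2% to 57.6% between Aldh1a1-high and Cyp11b2-high cells and from 22.2% to 55.6% for cells with both. With no replicate block it moved from 53.2% to 65.3% in the first of these, from 42.6% to 56.8% for intermediate Cyp11b1 and from 45.7% to 78.6% for cells low in both. With higher thresholds the median of all genes for cells with both was -0.26. Depth limits Nr1h3, and the 54 Aldh1a1-high cells limit every comparison with them.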
